A study of Arabidopsis thaliana with 6 samples.

Results

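The genes described here are 40 regulators of chromatin and DNA methylation of Arabidopsis thaliana, chosen by symbol for their role and looked up among the 27444 protein-coding genes of the 5 nuclear chromosomes. The choice was made with earlier results of these data known. All 40 were found, 31 by symbol, 8 by synonym and 1, ATX1, by a symbol that several loci carry and that was settled by its locus AT2G31650. The measurement is the position of DNA recovered with the noncoding RNA HID1 by chromatin isolation by RNA purification (ChIRP), in which biotinylated antisense probes pull an RNA down together with the chromatin cross-linked to it. The study asks how HID1 acts in seed germination that depends on phytochrome B, the red light receptor, and on abscisic acid, the hormone that holds germination back.

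All libraries came from seeds of the Col-0 ecotype, the wild-type reference strain, given 5 min of red light to activate phytochrome B and then 48 h of darkness. The 6 libraries form 3 groups of 2, which are HID1 probe libraries, mock libraries made with probes that carry no biotin, and input libraries. The probe libraries are labelled replicates 1 and 2 and differ in fixation, 1% formaldehyde (reversible) for replicate 1 and 1% glutaraldehyde (non-reversible) for replicate 2, each for 20 min. Libraries of the mock and input groups were not used here. The deposited lists hold 4557 formaldehyde and 6306 glutaraldehyde peaks, and the read depth behind them is unknown. With 1 library for each cross-linker there is no replicate check and no test between conditions, so every value is a description of these libraries, and cross-linker and library cannot be told apart. Seeds hold embryo, endosperm and seed coat, and a peak list carries no marker by which their shares could be checked.

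Polycomb proteins place and read a repressive methyl mark on histone H3, which the JmjC enzymes REF6 and ELF6 remove. Trithorax methyltransferases place active methyl marks on the same histone, which LSD1-type demethylases can take off. Plant DNA methylation is copied by MET1 and the chromomethylases, set anew by DRM enzymes guided by small RNAs, and excised by the DNA glycosylases DME, ROS1, DML2 and DML3. In seeds these systems are known for genomic imprinting in the endosperm, for silencing embryo genes as the seedling forms, and, through the histone arginine demethylases JMJ20 and JMJ22, for germination downstream of phytochrome B.

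Peaks lay in the body or within 1 kb of 21 of the 40 genes, and 19 genes had none. A formaldehyde peak was found at 9 genes (22.5%), against 16.9% of all protein-coding genes. A glutaraldehyde peak was found at 15 genes (37.5%), against 25.9% of all protein-coding genes. Counting either library, the share was 52.5% against 38%. Both libraries had a peak at 3 genes, DRM1, DML2 and RDR2 (7.5% against 4.84%), and in 2 of them, DRM1 and DML2, the peaks of the libraries overlapped each other (5% against 1.77%). The other 18 had a peak in a single library, 6 with formaldehyde and 12 with glutaraldehyde. Over all protein-coding genes, 10432 had a peak in either library and 1329 in both, so a single library was also the usual case there.

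Chromatin regulators are long genes, and against genes of equal length the counts lay close to the background. Their median length was 5092 bp against 2078 bp for all protein-coding genes, and 39 of the 40 were longer than that median. JMJ22, at 2042 bp, was the shortest and PKL, at 10300 bp, the longest. Over all protein-coding genes, the share with a formaldehyde peak went from 10.4% in the shortest of 20 equal length bins to 28.7% in the longest, and the share with a glutaraldehyde peak from 17.5% to 40.3%. Taking for each of the 40 the share of its own length bin, 9.79 genes were expected with a formaldehyde peak and 9 had one. For glutaraldehyde the values were 14.1 expected and 15 found, for either library 20.1 and 21, and for both libraries 3.77 and 3. Overlapping peaks were found at 2 genes with 1.07 expected, a difference of about a single gene. As a set, these genes therefore carried peaks about as often as other genes of their length in these libraries.

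**Figure D1:**
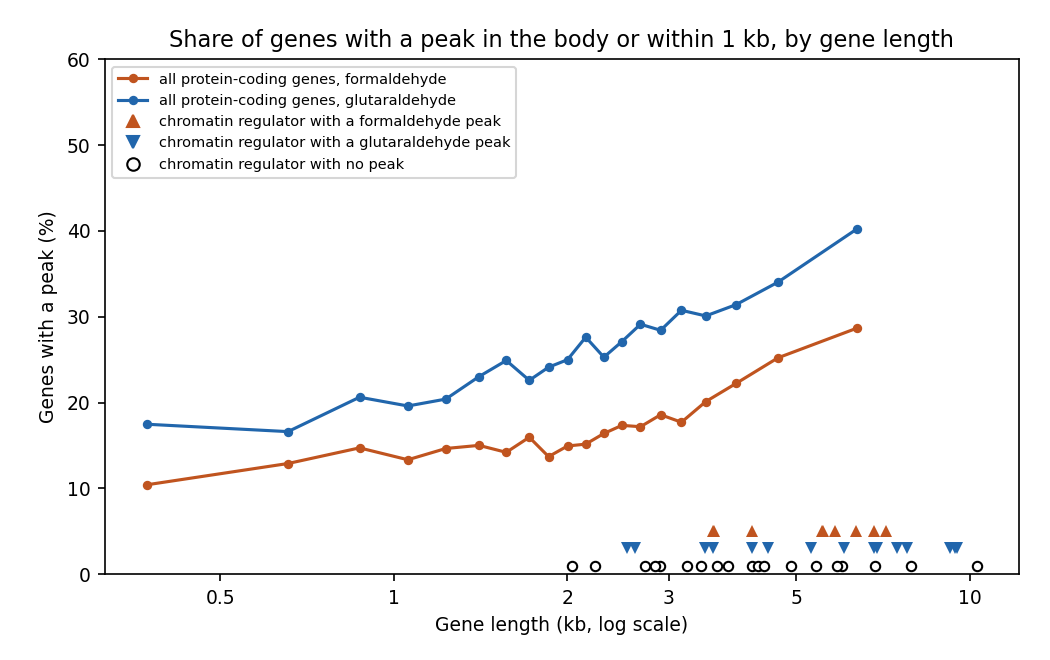
Share of all protein-coding genes with a HID1 ChIRP peak in the body or within 1 kb (vertical axis, percent) in 20 bins of gene length (horizontal axis, kb, log scale) for each library, with the 40 chromatin regulators marked along the bottom at their own lengths (their height has no meaning). The share climbs from 10.4% to 28.7% with formaldehyde and from 17.5% to 40.3% with glutaraldehyde, and the regulators sit at the long end, where those with and without peaks intermingle.

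Peak density was set against all protein-coding genes, without matching for length. A peak counts in every window that it touches, which raises the density more for short windows than for long ones. The windows of the 40 genes, each a body with 1 kb on either side, held 3.44 formaldehyde peaks per 100 kb against 4.22 for the windows of all protein-coding genes, and 5.85 glutaraldehyde peaks against 6.74. Formaldehyde peaks covered 4.22% of the summed bodies of the regulators and 3.93% of those of all protein-coding genes, and glutaraldehyde peaks 3.42% and 4.28%. Within 50 kb on either side the genes had a median of 3 formaldehyde and 6 glutaraldehyde peaks, the same medians as over all protein-coding genes, with ranges of 0 to 10 and 2 to 11.

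The score of a peak is the peak caller's own value, as the authors deposited it, and ranks peaks within a list. The 10 formaldehyde peaks at the regulators scored from 73.1 to 173, with a median of 86.8 against 74.3 for the whole list, and 2 of the 10 reached 100, a level that 26.9% of the list reached. Of these 10 peaks, 9 scored above the median of the list. The 17 glutaraldehyde peaks scored from 50.8 to 324, with a median of 77.0 against 72.3, and 6 of the 17 reached 100, against 22.8% of the list, while 10 of the 17 scored above its median. For scale, the peaks at the HID1 locus itself, AT2G35747 from prior knowledge, scored 348 (rank 23) with formaldehyde and 2149.6 (rank 1) with glutaraldehyde. At a score of 100 or above, 2 of the 40 genes had a formaldehyde peak (background 4.31%), 5 a glutaraldehyde peak (background 6.6%) and 0 a peak in each library (background 0.361%).

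**Figure D2:**
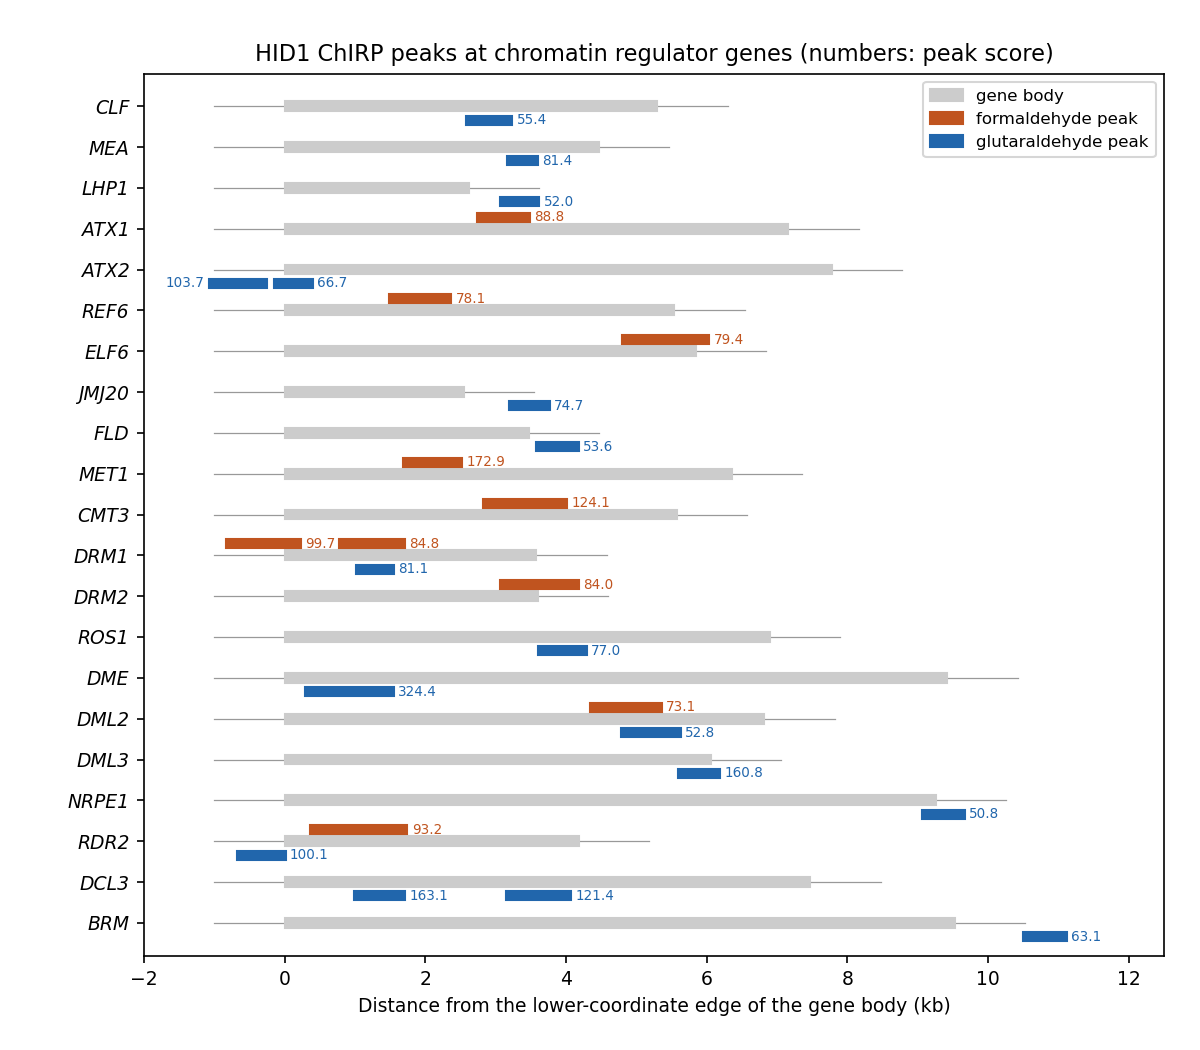
Map of the 21 chromatin regulators with a peak, drawn to scale from the edge of the gene body with the lower coordinate (kb), with formaldehyde peaks above and glutaraldehyde peaks below each body, thin lines for the 1 kb flanks and the peak score beside each peak. Direction of transcription is not shown. The peaks of the libraries overlap at DRM1 and DML2 alone, and the DME peak has the highest glutaraldehyde score, 324.

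All 4 DNA glycosylase genes, whose products remove methylcytosine, had a glutaraldehyde peak. From genes of their length 1.61 were expected, and 1 of the 4, DML2, also had a formaldehyde peak (1.15 expected). With the glutaraldehyde list cut to 4557 peaks, DML2 lost its glutaraldehyde peak and the others kept theirs. At a score of 100 or more, DME and DML3 alone kept one. DME, which acts in the central cell before fertilisation and is required for the expression of imprinted endosperm genes such as MEA, held the best ranked peak of the whole set. It lay at chr5:1309389-1310653 (TAIR10), 1265 bp, with a score of 324 and rank 12 of 6306. It began 290 bp inside the gene body at its lower edge and covered a stretch centred at 9.79% of the 9422 bp body. Of all protein-coding genes, 10 had a glutaraldehyde peak of that rank or better in the body. With formaldehyde, the nearest peak to DME lay 75.9 kb away, and 0.736% of protein-coding genes were farther from one.

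DML3 also had a high glutaraldehyde score, 161 (rank 319 of 6306), for a peak at chr4:16318961-16319560 that crossed the upper edge of the body by 134 bp. Its nearest formaldehyde peak was 6.41 kb away. ROS1, the main demethylase of vegetative tissues, had a glutaraldehyde peak at chr2:15311513-15312204, near the middle of the body, with a score of 77.0 and rank 2727, and its nearest formaldehyde peak was 15.3 kb away. So 3 of the 4 glycosylase genes were found with glutaraldehyde and not with formaldehyde. In the longest length bin, which holds all 4, 40.3% of genes had a glutaraldehyde peak and 12.3% had peaks of both libraries.

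DML2 was the glycosylase gene with peaks of both libraries, and they overlapped. The formaldehyde peak, chr3:3086073-3087099, scored 73.1 (rank 2351 of 4557), and the glutaraldehyde peak, chr3:3086514-3087366, scored 52.8 (rank 5783 of 6306), close to the lowest score of its list, 50. They shared 586 bp inside the gene body, 57.1% of the formaldehyde and 68.7% of the glutaraldehyde peak, with midpoints 354 bp apart. Ordered by the poorer of their relative ranks, the DML2 pair took place 421 of the 488 overlapping pairs of the genome.

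Among the DNA methyltransferases, the peaks were mostly those of the formaldehyde library. With DDM1, the nucleosome remodeller needed for DNA methylation, the group has 6 genes, of which 4 had a formaldehyde peak (1.52 expected by length) and 1 a glutaraldehyde peak (2.15 expected). MET1, which maintains methylation at CG sites, held the highest formaldehyde score of the set. It was 173, rank 292 of 4557, for a peak at chr5:19933802-19934640 that lay whole in the body, and the nearest glutaraldehyde peak to the gene was 8.66 kb away. The surroundings of MET1 held 10 formaldehyde peaks within 50 kb, the most of any of the 40 genes.

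CMT3, a chromomethylase that maintains methylation at CHG sites, had a formaldehyde peak of 1204 bp inside the body, chr1:26250933-26252136, with a score of 124 (rank 735). No glutaraldehyde peak lay within 9.84 kb of CMT3. Its relative CMT2, which methylates CHH sites in heterochromatin and is longer, at 6838 bp against 5570 bp, had no peak, with the nearest 4.31 kb away with formaldehyde and 3.68 kb with glutaraldehyde.

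The enzymes of de novo methylation, DRM1 and DRM2, both had formaldehyde peaks. At DRM1 a first formaldehyde peak, chr5:4990517-4991578 with a score of 99.7, crossed the lower edge with 232 of its 1062 bp in the body, and a second, chr5:4992113-4993055 with a score of 84.8 (rank 1755), lay inside. The glutaraldehyde peak of DRM1, chr5:4992359-4992904 with a score of 81.1 (rank 2424), lay whole within the second, so that the shared stretch was 546 bp and the midpoints were 47 bp apart. The DRM1 pair took place 113 of 488 by the poorer relative rank, the better of the pairs found at these genes. Formaldehyde peaks covered 32.8% of the 3578 bp body.

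DRM2, the DRM gene with the larger part in most tissues, had a formaldehyde peak across its upper edge, chr5:4718159-4719291, with a score of 84.0. Its midpoint lay outside the body and the peak also touched the neighbouring kinase gene SK13. The nearest glutaraldehyde peak to DRM2 was 24.9 kb away, the longest such distance among the 40. DDM1 was far from both lists, 51.9 kb from a formaldehyde and 17.5 kb from a glutaraldehyde peak.

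**Figure D3:**
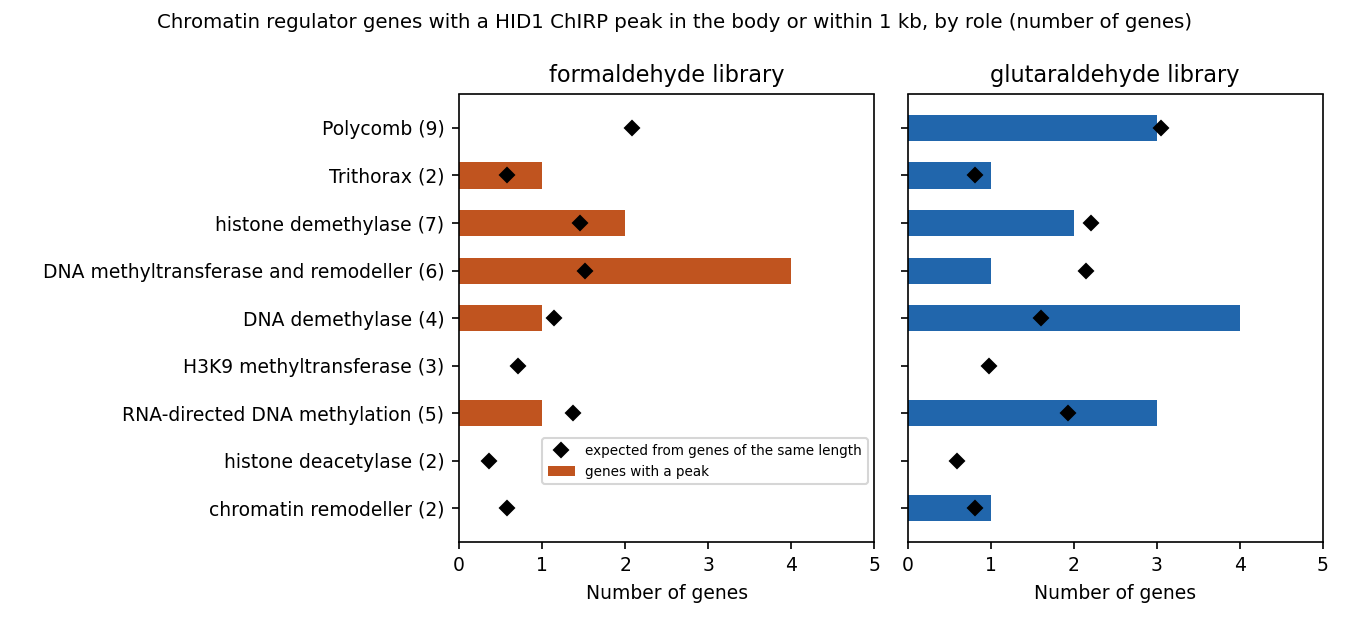
Number of chromatin regulators with a formaldehyde (left) or glutaraldehyde (right) peak in the body or within 1 kb, as bars from 0, for 9 groups by role with the number of genes in brackets, and as diamonds the number expected from protein-coding genes of the same length bin. The bars exceed the diamonds most for DNA methyltransferases with formaldehyde (4 against 1.52) and for DNA demethylases with glutaraldehyde (4 against 1.61). SUVH methyltransferases and histone deacetylases have no bar in either panel, and the Polycomb and chromatin remodeller groups have none with formaldehyde.

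These group differences rest on 4 and 6 genes, in role groups chosen with earlier results of these data known. They were not tested, and lie beside groups that fell short of their expectation. The Polycomb group was the largest of these, with 0 of 9 genes at a formaldehyde peak (2.08 expected) and 3 at a glutaraldehyde peak (3.05 expected). CLF, the main Polycomb methyltransferase of vegetative tissues, had one at chr2:9957663-9958326 in the middle of its body with a score of 55.4 (rank 5322), and no formaldehyde peak within 53.7 kb. MEA, its imprinted relative in the endosperm, had one at chr1:547893-548326, 434 bp, the narrowest of the set, with a score of 81.4 (rank 2405). LHP1, which binds the Polycomb mark, had one in its flank, 440 bp from the body, at chr5:5830203-5830762 with a score of 52.0 (rank 5912). That peak touched the neighbouring gene AT5G17700.

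The other 6 Polycomb genes had no peak. They are SWN, the third methyltransferase of the complex, the zinc finger subunits EMF2, VRN2 and FIS2, and the WD40 proteins FIE and MSI1. Their nearest glutaraldehyde peaks lay between 1.22 kb (EMF2) and 12.3 kb (FIE) from the body. FIS2, which works with MEA in the seed, was 3.53 kb from a glutaraldehyde and 13.7 kb from a formaldehyde peak.

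The Trithorax genes ATX1 and ATX2, which encode histone H3 lysine methyltransferases, were each found with a different cross-linker. ATX1 had a formaldehyde peak inside its body, chr2:13458000-13458761, with a score of 88.8 (rank 1589), and its nearest glutaraldehyde peak was 2.19 kb away. ATX2 had 2 glutaraldehyde peaks at its lower edge. The stronger, chr1:1753049-1753878 with a score of 104 (rank 1311), lay 252 bp outside the body with its midpoint in the neighbouring gene SPPL5. The weaker, chr1:1753975-1754535 with a score of 66.7, crossed the edge with 406 of its 561 bp in ATX2.

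Of the 7 histone demethylase genes, 2 had a formaldehyde peak (1.46 expected) and 2 a glutaraldehyde peak (2.20 expected). REF6 and ELF6, the related demethylases of the Polycomb mark, both had a formaldehyde peak and no glutaraldehyde peak. That of REF6, chr3:17936737-17937624, lay inside the body with a score of 78.1 (rank 2054), and that of ELF6, chr5:1173951-1175188, crossed the upper edge with a score of 79.4 (rank 1996).

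JMJ20 had a glutaraldehyde peak at chr5:25303115-25303705 with a score of 74.7 (rank 2931), which lay 639 bp outside the body and touched the small neighbouring gene AT5G63085. Its nearest formaldehyde peak was 26.2 kb away. JMJ22, which acts with JMJ20 in light-dependent germination, had no peak, with the nearest 4.22 kb away with glutaraldehyde and 10.04 kb with formaldehyde. FLD, an LSD1-type demethylase known from flowering time, had a glutaraldehyde peak 103 bp outside its body, chr3:3232634-3233236, with a score of 53.6 (rank 5643). The midpoint of that peak lay in the neighbouring genes AT3G10405 and U11/U12-31K. The FLD relatives LDL1 and LDL2 had no peak, and the nearest glutaraldehyde peaks were 9.17 kb and 11.2 kb away.

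In RNA-directed DNA methylation, 3 of 5 genes had a glutaraldehyde peak (1.93 expected) and 1 a formaldehyde peak (1.37 expected). DCL3, the Dicer that cuts the small RNAs of this pathway, had 2 glutaraldehyde peaks inside its body. They lay at chr3:15754377-15755096 with a score of 163 (rank 304) and at chr3:15756540-15757459 with a score of 121 (rank 857). DCL3 was the single gene of the set with more than 1 peak of score 100 or above. Its nearest formaldehyde peak was 5.18 kb away.

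RDR2, which makes the double-stranded RNA that DCL3 cuts, had peaks of both libraries side by side. The formaldehyde peak, chr4:6780807-6782193, was 1387 bp long, scored 93.2 (rank 1439) and lay inside the body, of which it covered 33.2%. The glutaraldehyde peak, chr4:6779775-6780463, scored 100.1 (rank 1436), reached 15 bp into the body and had its midpoint in the neighbouring gene AT4G11120. A gap of 343 bp separated the peaks, so RDR2 does not count as overlapping.

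NRPE1, the largest subunit of RNA polymerase V, had a glutaraldehyde peak across its upper edge, chr2:16723513-16724124, with a score of 50.8 (rank 6152), the lowest of the glutaraldehyde scores at these genes. NRPD1, the matching subunit of RNA polymerase IV, is 7905 bp long and had no peak, although 11 glutaraldehyde peaks lay within 50 kb, the most of the set. AGO4, the Argonaute that binds the small RNAs, had no peak within 1 kb and a glutaraldehyde peak 1.49 kb away.

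The SUVH histone methyltransferases SUVH4, SUVH5 and SUVH6, which couple histone and DNA methylation, and the histone deacetylases HDA6 and HDA19 had no peak in either library. The lengths of these genes gave 1.45 SUVH genes and 0.848 deacetylase genes expected with a peak in either library, so both groups fell short of their expectation. With 3 and 2 genes the groups are small, and the shortfall was not tested. Of the chromatin remodellers, BRM, the ATPase of a SWI/SNF complex, had a glutaraldehyde peak in its flank at chr2:18933031-18933649 with a score of 63.1 (rank 4203) and its midpoint in the neighbouring gene UBC6. PKL, a CHD3 remodeller that represses seed genes during germination and the longest of the 40 genes, had none, and its nearest peaks were 2.32 kb and 12.8 kb away.

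**Figure D4:**
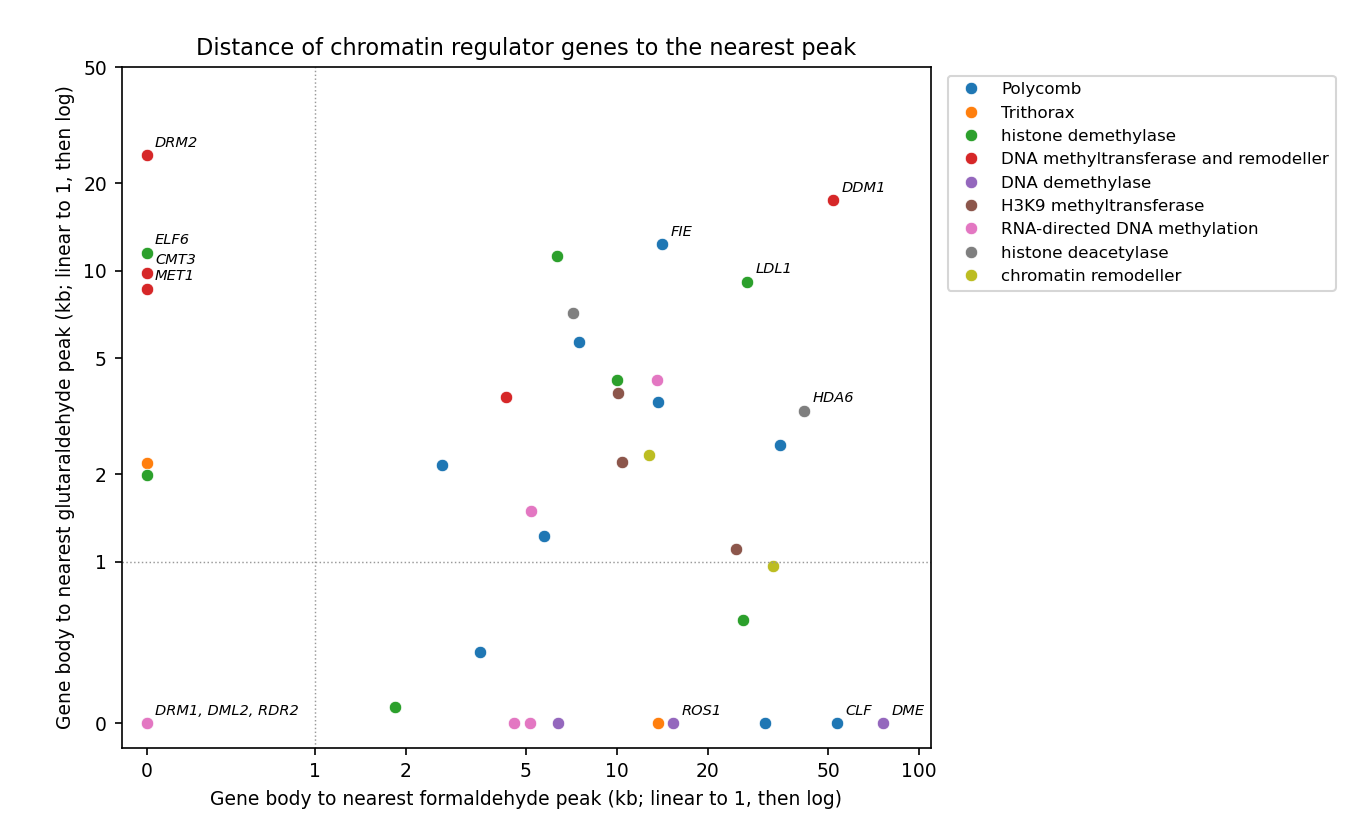
Distance from the body of each of the 40 chromatin regulators to the nearest formaldehyde (horizontal) and glutaraldehyde (vertical) peak, in kb on axes that are linear to 1 kb and logarithmic beyond, coloured by role, with dotted lines at the 1 kb limit. DRM1, DML2 and RDR2 lie at 0 on both axes, and DME and CLF lie at 0 for glutaraldehyde and beyond 50 kb for formaldehyde.

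The 40 include 12 families of close relatives with 30 genes, grouped with earlier results of these data known. Counting either library, every member had a peak in 4 of the 12, some members in 5 and no member in 3. If each gene had a peak as often as its length bin, independently of its relatives, 2.37, 7.26 and 2.37 families would be expected. Within a single library, every member had a formaldehyde peak in 2 families (REF6 with ELF6, and DRM1 with DRM2) and a glutaraldehyde peak in 1 (the DNA glycosylases), with 0.490 and 1.08 expected on the same basis. The difference was not tested, and the glycosylase family drops out when the glutaraldehyde list is cut to 4557 peaks, because DML2 then lacks one. The family of DRM1 and DRM2 drops out when the peak midpoint must lie in the body, because DRM2 then lacks one. At a score of 100 or more, REF6, ELF6, DRM1 and DRM2 all lose their formaldehyde peaks, and ROS1 and DML2 their glutaraldehyde peaks. The families without a peak were EMF2 with VRN2 and FIS2, the SUVH genes and the deacetylases.

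The libraries also gave different counts by position within the window, a difference that was not tested. Of the 10 formaldehyde peaks, 7 lay whole within the body, 3 crossed an edge and 0 lay in a flank. Of the 17 glutaraldehyde peaks, 8 lay within the body, 4 crossed an edge and 5 lay in a flank. Shares of these position classes over all protein-coding genes were not computed. Peak width differed as well, and a wider peak reaches a body more readily. The median width at these genes was 1044.5 bp with formaldehyde and 619 bp with glutaraldehyde, against 849 bp and 630 bp over the lists. Midpoints fell in the body of the regulator itself for 8 of 10 formaldehyde and 10 of 17 glutaraldehyde peaks. Over the gene and peak pairs of all protein-coding genes these shares were 56.1% and 48.0%, and the long bodies of the regulators take up more of their windows. By this stricter rule 8 genes kept a formaldehyde peak (7.81 expected by length, background 9.82%) and 9 a glutaraldehyde peak (9.77 expected, background 13.2%). The genes that dropped out were DRM2 with formaldehyde and LHP1, JMJ20, FLD, NRPE1, RDR2 and BRM with glutaraldehyde.

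Just inside the 1 kb limit lay the glutaraldehyde peaks of JMJ20 at 639 bp and BRM at 976 bp. Just outside it lay glutaraldehyde peaks at 1027 bp from DRM1, 1105 bp from SUVH4, with a score of 121, and 1221 bp from EMF2. The genes without a glutaraldehyde peak had one at a median of 3.81 kb, against 7.03 kb for all protein-coding genes without one. For formaldehyde the medians were 12.8 kb and 11.1 kb.

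A wider list of 80 further chromatin genes, of which 68 matched a single locus, was counted in the same way. A formaldehyde peak lay at 17 of the 68 (16.2 expected by length), a glutaraldehyde peak at 27 (23.5 expected) and a peak in both libraries at 7 (6.14 expected). Overlapping peaks were found at 0 of 68, with 1.74 expected. At a score of 100 or above, 9 of the 68 had a formaldehyde peak (4.04 expected) and 6 a glutaraldehyde peak (6.38 expected). The 7 genes with a peak in both libraries were the Polycomb partners EMF1, VRN1 and MSI4, the Trithorax gene ATX3, the demethylase gene JMJ15 and the RNA silencing genes DRD1 and DCL4. The highest of their scores was 163 (rank 357 of 4557), for the formaldehyde peak of ATX3 at chr3:22850816-22852110. At MSI4 the formaldehyde peak lay in the flank, 848 bp from the body, with a score of 53.8 (rank 4010). At DRD1 the glutaraldehyde peak had 33 of its 692 bp in the body and its midpoint in the neighbouring gene BLH7. With midpoints required in the body, 5 of the 68 had a peak in both libraries (3.58 expected, background 1.8%). All 7 matched histone demethylase genes of this list had a peak in at least 1 library (3.61 expected). A glutaraldehyde peak lay at 5 of them (2.53 expected) and a formaldehyde peak at 3 (1.74 expected). At JMJ14 and IBM1 the only peak lay in a flank, 959 bp and 734 bp from the body. The only peak of JMJ30 scored 53.4 (rank 5672 of 6306). Among the 7 demethylase genes described above, 4 had a peak in either library, with 3.16 expected. Polycomb partners on this list had a formaldehyde peak at 4 of 9 genes (1.93 expected), where the 9 Polycomb genes above had none. MSI4 is among the 4 through its flank peak alone. The RNA-directed methylation genes had a formaldehyde peak at 2 of 14 (3.49 expected). The DNA methylation and silencing genes of this list had a formaldehyde peak at 2 of 9 (2.11 expected), where the methyltransferase group above had 4 of 6. The Trithorax, histone acetylation and chromatin remodelling groups had a peak in either library at 5 of 11, 4 of 8 and 6 of 10 genes, with 5.69, 3.75 and 4.94 expected. None of these group differences was tested, and the wider list was also chosen with earlier results known.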

How the data were processed

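HID1 ChIRP-seq of Col-0 seeds gave 2 peak lists, 1 for each probe library. Per the submitters' processing notes, the tools were Bowtie2 2.1.0 and MACS 1.4.2 and the build was TAIR10. The unit is the peak score as the authors deposited it, which in this MACS version is the −log10 of a peak's p-value multiplied by 10. Sources used here give no peak calling settings, control or read depth, so no interval could be computed.

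Gene positions came from the RefSeq table of TAIR10.1, whose nuclear coordinates are, from background knowledge, those of TAIR10. The table has no strand or exons. Printed coordinates are those of the peaks, counted from 1. Distances run between the closest bases of peak and body.

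A gene had a peak if any base lay in its body or within 1000 bp. Peaks of the libraries overlapped at 1 bp or more. Expected numbers are sums, over the listed genes, of the share of genes with a peak in the same of 20 length bins of equal gene number. No test was run, because each cross-linker has 1 library. Counting was checked on simulated peaks. Python 3.11.15 and pandas 2.3.3 were used. The 40 genes, the role groups, families and wider list were chosen with earlier results of these data known. All 40 are accounted for, and every gene with a peak is named. Of the wider list, every gene with a peak in both libraries and a few others are named. From it, 9 symbols without a match and 3 shared by several loci were left out. No sequences were used here.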

Additional observations from a re-analysis of the deposited data

How the results depend on the processing

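The counts of genes with a peak followed the number of peaks allowed. With scores of 100 or more, 2 genes had a formaldehyde peak (MET1 and CMT3), 5 a glutaraldehyde peak and 7 either, with 2.42, 3.87 and 5.99 expected by length, and 0 genes had peaks in both libraries or overlapping peaks (0.299 and 0.126 expected). With the 1000 highest scoring peaks of each library the counts were 2, 3 and 5 (1.98, 2.85 and 4.60 expected), and 0 for both and for overlapping peaks (0.222 and 0.114 expected). With glutaraldehyde peaks required to have their midpoint in the body, a rule added after the data had been seen, 9 genes remained (9.77 expected). Flanks of 2 kb gave 5 genes with peaks in both libraries, REF6 and FLD being added, with 5.23 expected. Overlapping peaks were left at 1 gene, DRM1, when midpoints had to lie within 200 bp or the glutaraldehyde list was cut to 4557 peaks (0.312 and 0.827 expected). When 50% of each peak had to overlap, both DRM1 and DML2 stayed. Without 1 of the libraries, the genes with any peak numbered 9 to 15 (9.79 and 14.1 expected). With the glutaraldehyde list cut to 4557 peaks, 10 genes had a glutaraldehyde peak (10.6 expected). Counting either library gave 17 (17.6 expected) and both libraries 2 (2.82 expected). The remaining alternatives, flanks of 500 bp, bodies only and midpoints at the gene, moved these counts by less than 1.5 times. Expected numbers from 100 length bins, also added later, were 9.79 with formaldehyde and 14.6 with glutaraldehyde. No paired analysis was possible because the result comes from no test and the other groups were not analysed here. The unknown depth of the libraries limits all comparison of counts between them.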
